A study of Mus musculus with 6 samples.

Results

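The 43 genes described here encode the actins, the proteins that bind, cross-link, move or anchor actin filaments, and the serum response factor Srf with genes that respond to it. They were chosen by symbol from a list of actin, actin-binding, contractile and SRF-responsive genes, drawn up with the difference between the genotypes already known. All 43 symbols matched 1 Ensembl gene each among the 52870 genes and assembled loci in each file. The libraries are of mouse embryonic stem cells of the C57BL/6 strain, 3 from Rbbp4KO cells (genotype Rbbp4-/-) and 3 from Rbbp4F/F cells, which the series title names as the control and which carry, in the usual notation, a pair of loxP-flanked alleles. No Cre driver, clone number, passage or culture condition is stated in the labels. Separate cultures for the libraries of 1 genotype are not stated either, so p-values measure the spread between these libraries only, which may be technical.

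Actin is the subunit of the thinnest cytoskeletal filament. Cofilin severs filaments, profilin loads monomers onto growing ends, and thymosins keep monomers out of filaments. Tropomyosins coat filaments, non-muscle myosin II pulls on them, and vinculin, talin and zyxin tie them to integrin adhesions. SRF is a transcription factor that binds a DNA element called the CArG box, and its cofactors of the MRTF family are held back by monomeric actin, so that the pool of free actin and the transcription of actin genes are coupled. Genes such as Acta2, Tagln and Cnn1 are best known as smooth muscle markers, whereas Actb, Actg1, Cfl1 and Pfn1 are used by nearly every cell.

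The CArG box was looked up in the promoter windows of RefSeq (GRCm38.p6), which run from 250 bases before to 50 bases after a transcription start. Of the 43 members 38 had a window, and the windows of 10 of these genes (26.3%) held a box, against 488 of all 27025 genes with a window (1.81%). SRF-responsive genes were among those listed, so this difference follows in part from the choice of members. The box is a run of A or T bases between a pair of C and a pair of G, and it reads as a box on either strand. The stretches that hold it are shown because the box is the element that SRF binds, each 5′ to 3′ on the strand of its gene with the box in capitals.
Srf (chr17:46556200-46556259, minus strand): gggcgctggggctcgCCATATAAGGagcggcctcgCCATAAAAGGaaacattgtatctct
Actg1 (chr11:120348561-120348600, minus strand): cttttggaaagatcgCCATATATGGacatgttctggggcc
Myl6 (chr10:128493035-128493074, minus strand): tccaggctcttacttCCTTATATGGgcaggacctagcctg
Myl9 (chr2:156775288-156775327, plus strand): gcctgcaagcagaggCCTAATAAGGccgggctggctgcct
Cnn2 (chr10:79988529-79988568, plus strand): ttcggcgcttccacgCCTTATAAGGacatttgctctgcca
Vcl (chr14:20929156-20929195, plus strand): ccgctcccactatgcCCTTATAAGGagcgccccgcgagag
Lima1 (chr15:99820172-99820211, minus strand): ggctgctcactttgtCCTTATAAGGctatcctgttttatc
Fhl1 (chrX:56779566-56779605, plus strand): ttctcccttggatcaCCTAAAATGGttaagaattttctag
Fhl2, start 1 (chr1:43163968-43164007, minus strand): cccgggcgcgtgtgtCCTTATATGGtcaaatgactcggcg
Fhl2, start 2 (chr1:43196833-43196872, minus strand): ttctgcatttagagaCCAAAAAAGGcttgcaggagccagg
Srf carried 2 boxes, with their first bases at 82 and 62 bases before its start, and the boxes of Cnn2, Vcl and Lima1 had the same letters. The windows with the boxes of Lima1, Fhl1, Myl6 and Fhl2 start 1 lie wholly inside the annotated gene, so those starts are internal. Lima1 and Fhl1 had no window at the outermost 5′ end of the gene. The tenth gene was Acta1, shown here over its whole window (chr8:123894726-123895025, minus strand).
Acta1: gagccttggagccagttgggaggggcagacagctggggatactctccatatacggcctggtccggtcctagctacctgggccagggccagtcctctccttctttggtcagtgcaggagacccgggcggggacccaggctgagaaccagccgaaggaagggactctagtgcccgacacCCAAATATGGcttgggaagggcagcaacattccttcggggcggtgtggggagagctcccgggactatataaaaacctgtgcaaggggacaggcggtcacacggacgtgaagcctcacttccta

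A box with 1 inner letter off was present in the windows of 7 members (18.4%), against 9.69% of all genes. Acta2 had a pair of such boxes, at 84 and 34 bases before the start, and Flnc had one, at 163 bases before it. Both are contractile genes that were called higher and held no exact box. They are shown as examples, picked with their values in view, and the capitals mark the near boxes. Among the other members with a near box, Acta1 changed by 1.83, Myl12a by 1.28, Myl9 by 1.06 and Vasp by 0.30, and Tpm3 was not called (0.24). Acta1 and Myl9 also hold an exact box.
Acta2 (chr19:34255383-34255472, minus strand): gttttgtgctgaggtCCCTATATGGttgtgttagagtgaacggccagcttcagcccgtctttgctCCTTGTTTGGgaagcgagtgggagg
Flnc (chr6:29432975-29433014, plus strand): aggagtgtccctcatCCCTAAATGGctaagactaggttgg
For comparison, the windows of 5 members held TATAAA on either strand (13.2%, against 15.7% of all genes), and those of 11 held CATTCC, the core of the element that TEAD factors bind (28.9%, against 16.6%). TATAAA can lie inside a CArG box, and the last letters of CATTCC can be the first of one. A match is only a run of letters, and the lack of one says only that it is not in this window.

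**Figure D1:**
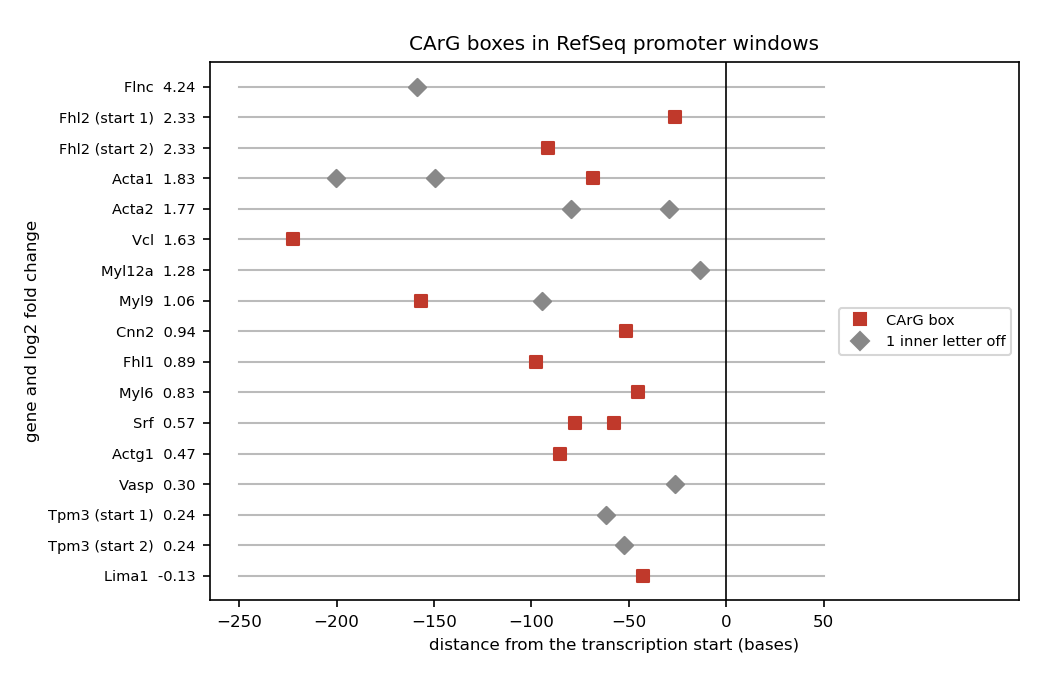
Position of CArG boxes (red squares) and boxes with 1 inner letter off (grey diamonds) in the promoter windows of the members that hold either; the x axis is the distance of the middle of the box from the transcription start in bases, and each row gives the gene and its log2 fold change, Rbbp4KO minus Rbbp4F/F. Exact boxes lie upstream of the start in every row that has one, and the genes that hold them range in change from Fhl2 (2.33) to Lima1 (−0.13).

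Levels are in FPKM, a fragment count divided by the length of the transcript and by the library's fragment total, and the spacing of low values put the depth at about 26100000 to 28600000 fragments per library. Rbbp4 itself had 21.3, 12.7 and 11.1 FPKM in Rbbp4KO libraries 1 to 3, against 58.5, 57.0 and 61.8 FPKM in Rbbp4F/F libraries 1 to 3. All 8 stem cell markers were detected in every library, and their summed level was 1390 to 2175 FPKM in Rbbp4KO libraries and 4705 to 4855 FPKM in Rbbp4F/F libraries. By the rule given next, 7 of these 8 were called lower and none higher, and Zfp42 was not called. Dppa5a and Pou5f1 carried most of the sum, and Nanog was at 4.31 FPKM in Rbbp4KO libraries, against 79.2 FPKM in Rbbp4F/F libraries. A gene was tested where at least 3 libraries had at least 1 FPKM, 13579 genes in all, and a gene is called changed at an adjusted p under 0.05 in limma on log2(FPKM + 1). By this rule 59.1% of tested genes were called, 36.7% higher and 22.5% lower in Rbbp4KO libraries. Scaling between libraries shifts every fold change together: over all tested genes the median log2 fold change came to 0.17 as deposited, −0.04 under median-ratio and −0.07 under upper-quartile scaling, and the calls then split into 3627 higher and 4204 lower, and 3453 and 4402, against 4978 and 3051 as deposited. Scaling to equal FPKM sums moved the median the other way, to 0.31 (6089 higher, 2381 lower). Scaling to totals without the 20 most abundant genes gave 0.27 (5771 higher, 2538 lower).

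Most of the actin and SRF genes were higher in Rbbp4KO libraries. Of the 42 that were tested, 35 were called higher and 2 lower, and 5 were not called. The split was 30 higher and 5 lower under either median-ratio or upper-quartile scaling. Every Rbbp4KO library lay above every Rbbp4F/F library for 36 of the 43 genes and below for 2, against 41.3% and 25.5% of all tested genes. The median log2 fold change of the tested members was 0.92, against 0.17 over all tested genes, and 19 had a log2 fold change of at least 1, as 13.4% of all tested genes did. These counts describe the list and are no test of it, since the members were chosen with this contrast in view, and for the same reason no p is given for a member. The members together held 2.49%, 2.59% and 2.503% of the FPKM sum in Rbbp4KO libraries 1 to 3, against 1.90%, 1.87% and 1.75% in Rbbp4F/F libraries 1 to 3.

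**Figure D2:**
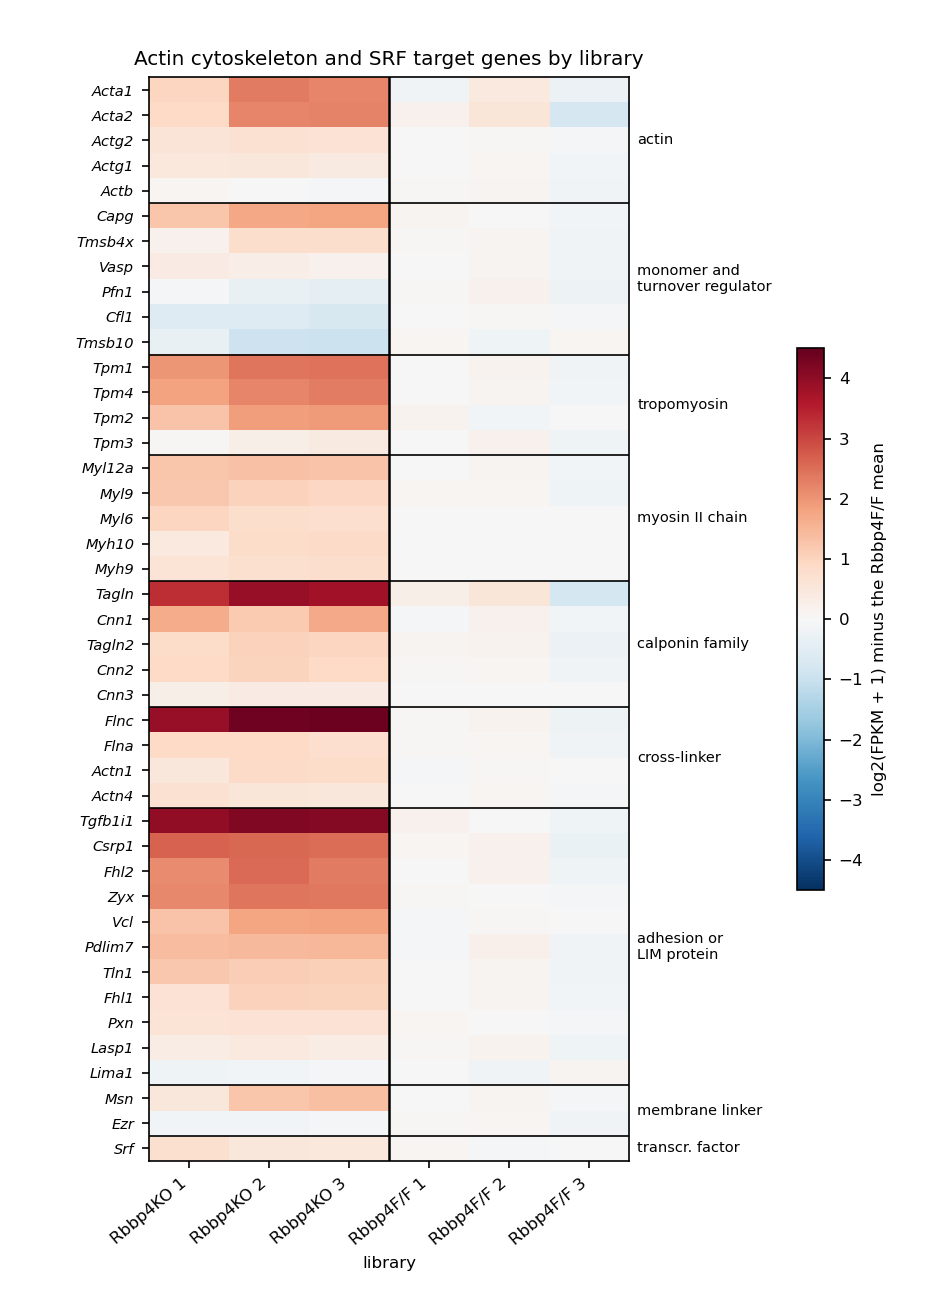
Level of each of the 43 genes in each library as log2(FPKM + 1) minus the mean of the Rbbp4F/F libraries (colour), with Rbbp4KO libraries left of the black line and genes grouped by role. Flnc, Tgfb1i1 and Tagln stand out in all 3 Rbbp4KO libraries, Tmsb10 and Cfl1 are below the Rbbp4F/F mean in all 3, and replicate 1 of Rbbp4KO is paler than replicates 2 and 3 for Acta1, Acta2 and Msn.

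The size of the change varied among abundant and among less abundant members. The 24 genes with a mean of at least 100 FPKM over all 6 libraries had a median log2 fold change of 0.65, and 18 were called higher and 2 lower. Of the other 19, 18 were tested, 17 were called higher and none lower, and their median over tested genes was 1.55. By textbook tissue use, 14 members are of contractile type (Acta1, Acta2, Actg2, Tagln, Tpm1, Tpm2, Myl9, Flnc, Cnn1, Csrp1, Tgfb1i1, Pdlim7, Fhl1 and Fhl2) and 29 are ubiquitous. All 13 contractile members that were tested were called higher, with a median of 1.83, while 22 of the 29 ubiquitous members were called higher and 2 lower, with a median of 0.63. The difference between these medians, 1.202, was 1.17, 1.58 and 1.48 when each Rbbp4KO library was set alone against the Rbbp4F/F mean. The 4 abundant contractile genes (Tagln, Tpm1, Csrp1 and Pdlim7) had a median of 2.43, against 0.52 for the 20 abundant ubiquitous genes. The level used here includes the Rbbp4KO libraries, and Tagln and Pdlim7 were below 100 FPKM in each Rbbp4F/F library.

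**Figure D3:**
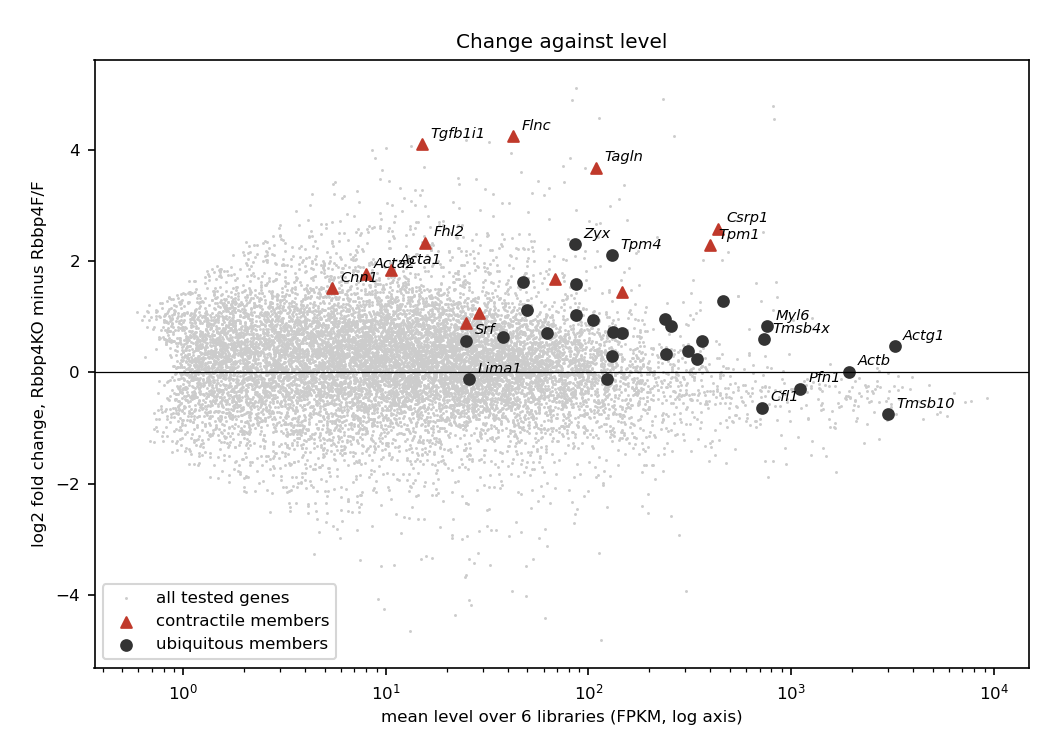
Log2 fold change, Rbbp4KO minus Rbbp4F/F, against the mean level over 6 libraries in FPKM (log axis) for all tested genes (grey), contractile members (red triangles) and ubiquitous members (black circles). The contractile members all lie above 0, while the most abundant ubiquitous genes (Actg1, Tmsb10, Actb and Pfn1) lie between −0.75 and 0.47.

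Among the actins, Acta1 and Acta2 rose on a low base, Actg1 rose by less, and Actb was not called. Actg1, which encodes cytoplasmic gamma-actin, had 3818, 3870 and 3601 FPKM in Rbbp4KO libraries 1 to 3, against 2779, 2875 and 2506 FPKM in Rbbp4F/F libraries 1 to 3. The groups do not overlap, and the log2 fold change was 0.47 (SE 0.09), which is 0.30 above that median of all genes and was not called with median-ratio scaling (0.24) or upper-quartile scaling (0.20). By mean level Actg1 ranked 10 of all genes in Rbbp4KO libraries and 41 in Rbbp4F/F libraries. Actb, which encodes cytoplasmic beta-actin, had 2034, 1928 and 1866 FPKM in Rbbp4KO libraries, against 1973, 2107 and 1714 FPKM in Rbbp4F/F libraries. Its groups overlap and the log2 fold change was 0.01 (SE 0.10) as deposited, −0.22 under median-ratio and −0.25 under upper-quartile scaling. Within a library the ratio of these genes is free of scaling: Actb made up 33.9 ± 0.820% of the FPKM of the 5 actin genes in Rbbp4KO libraries and 41.4 ± 0.817% in Rbbp4F/F libraries (SD, n = 3 each).

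Acta1, the skeletal muscle actin gene (GRCm38 chromosome 8, minus strand), had 8.40, 22.8 and 20.9 FPKM in Rbbp4KO libraries 1 to 3, against 3.26, 5.42 and 2.94 FPKM in Rbbp4F/F libraries. Acta2, the smooth muscle alpha-actin gene, had 6.07, 16.04 and 16.5 FPKM in Rbbp4KO libraries, against 3.32, 4.45 and 1.25 FPKM in Rbbp4F/F libraries. Both were called higher, with log2 fold changes of 1.83 (SE 0.38) and 1.77 (SE 0.45), and in both the first Rbbp4KO library was the lowest of its group and nearest to the Rbbp4F/F libraries. Actg2, the enteric smooth muscle actin gene, stayed under 1 FPKM in all libraries and was not tested. It had 0.59, 0.72 and 0.68 FPKM in Rbbp4KO libraries, against 0.07 and 0.11 FPKM and a listed 0 in Rbbp4F/F libraries. Taken as a share, these 3 muscle-type actins made up 0.257%, 0.677% and 0.692% of actin FPKM in Rbbp4KO libraries and 0.140%, 0.200% and 0.0992% in Rbbp4F/F libraries, so cytoplasmic actin made up over 99% in each of the 6. Here and below, RNA from bulk cultures cannot tell fewer cells that express a gene from less of its RNA per cell.

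Of the 6 regulators of monomers and filament turnover, 3 were called higher and 2 lower, against 36.7% and 22.5% of all tested genes. Tmsb10, which encodes a thymosin that binds monomeric actin and was the most abundant of these 6 genes, had 2963, 1972 and 1898 FPKM in Rbbp4KO libraries 1 to 3, against 3939, 3301 and 4017 FPKM in Rbbp4F/F libraries. It fell (log2 fold change −0.75, SE 0.19), and the groups do not overlap. Tmsb4x, the gene of the other thymosin, had 670, 1005 and 1008 FPKM in Rbbp4KO libraries, against 596, 634 and 518 FPKM in Rbbp4F/F libraries. Its log2 fold change was 0.60 (SE 0.17), but the call was lost with median-ratio scaling (0.37), with upper-quartile scaling (0.33), without a filter (0.60), and without Rbbp4KO replicate 2 (0.50) or 3 (0.50) or Rbbp4F/F replicate 1 (0.62) or 3 (0.52). Together the thymosins came to 0.552 ± 0.0586 FPKM per FPKM of actin in Rbbp4KO libraries and 0.938 ± 0.143 in Rbbp4F/F libraries, a ratio that scaling does not touch.

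Cfl1, the gene of non-muscle cofilin, fell to 566 ± 26.9 FPKM in Rbbp4KO libraries, against 877 ± 49.9 FPKM in Rbbp4F/F libraries (log2 fold change −0.63, SE 0.08, also −0.80 relative to all tested genes). Pfn1, the profilin gene, had 995.5 ± 125.5 and 1220 ± 170.2 FPKM in Rbbp4KO and Rbbp4F/F libraries (−0.29, SE 0.14). Its groups overlap and it was not called, but it was called lower with median-ratio scaling (−0.52), with upper-quartile scaling (−0.56), without Rbbp4KO replicate 1 (−0.39) and without Rbbp4F/F replicate 3 (−0.40). Capg, which encodes a protein that caps filament ends, had the largest increase of the role, with 102, 144 and 146 FPKM in Rbbp4KO libraries, against 45.6, 42.8 and 38.2 FPKM in Rbbp4F/F libraries (1.59, SE 0.15). Vasp, which encodes a protein that speeds filament growth at adhesions, had 144 ± 8.81 and 117 ± 11.7 FPKM (0.30, SE 0.10) in Rbbp4KO and Rbbp4F/F libraries, and its call was lost with median-ratio scaling (0.07), with upper-quartile scaling (0.03), without a filter (0.30), and without Rbbp4KO replicate 1 (0.25) or 2 (0.30) or Rbbp4F/F replicate 1 (0.31) or 3 (0.22).

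The tropomyosins changed in proportion as well as in amount. Tpm1 (GRCm38 chromosome 9), a tropomyosin gene of muscle and of stress fibres, had 540, 718 and 732 FPKM in Rbbp4KO libraries 1 to 3, against 136, 150 and 119 FPKM in Rbbp4F/F libraries (log2 fold change 2.28, SE 0.14). Tpm4 rose to 212 ± 36.1 FPKM in Rbbp4KO libraries, against 48.2 ± 4.19 FPKM in Rbbp4F/F libraries (2.103, SE 0.14), and Tpm2 to 105 ± 24.4 FPKM, against 31.5 ± 3.20 FPKM (1.69, SE 0.18). Tpm3 was the member of the family that was not called. Its values were 324, 379 and 410 FPKM in Rbbp4KO libraries and 310, 359 and 274 FPKM in Rbbp4F/F libraries (0.24, SE 0.13), the groups overlap, and its sign turned with upper-quartile scaling (−0.02), while it was called higher with equal FPKM sums (0.40) and without Rbbp4KO replicate 1 (0.34). As a share of tropomyosin FPKM, Tpm1 made up 49.0 ± 0.736% in Rbbp4KO libraries and 25.5 ± 0.216% in Rbbp4F/F libraries, and Tpm3 27.6 ± 1.43% and 59.3 ± 1.32%. These shares varied less between the Rbbp4KO libraries than the tropomyosin total did, which was 1113, 1440 and 1503 FPKM, against 528, 590 and 468 FPKM in Rbbp4F/F libraries.

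**Figure D4:**
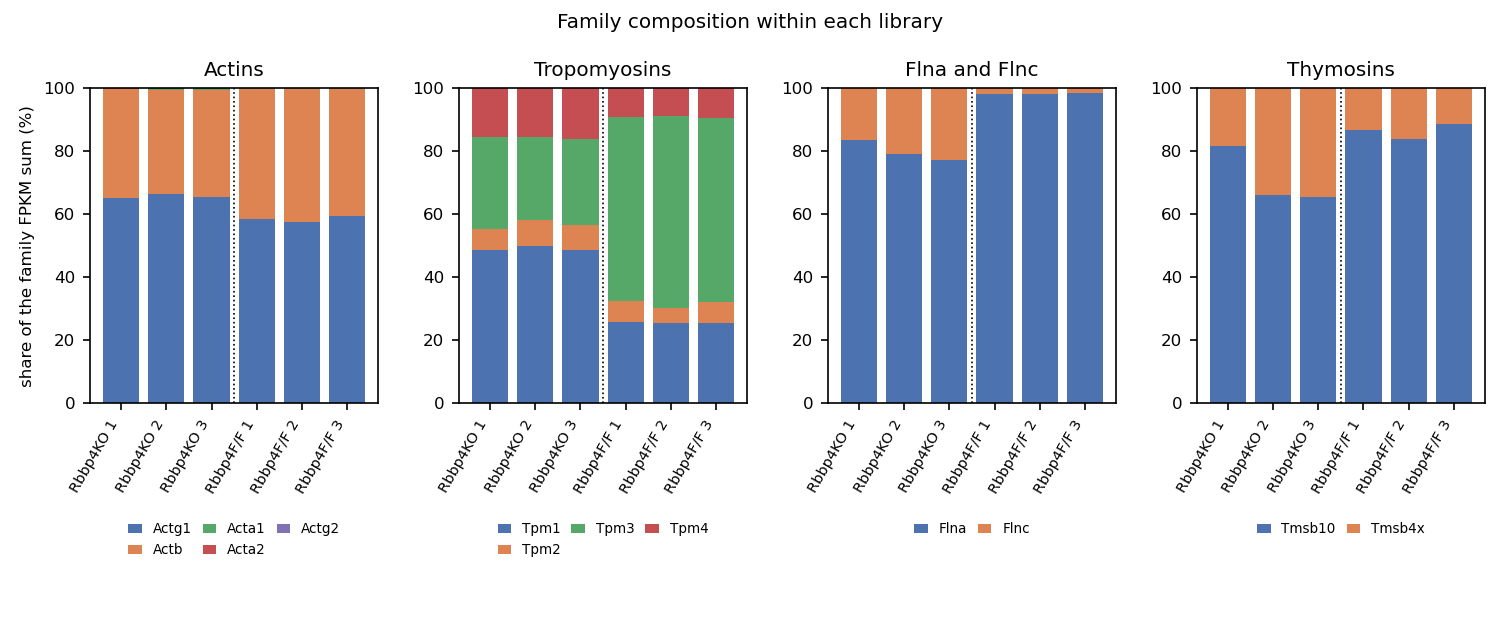
Share of each gene in the FPKM sum of its family, in percent, for actins, tropomyosins, the pair Flna and Flnc, and thymosins, one bar per library with Rbbp4KO libraries left of the dotted line. Tpm3 holds over 58% of tropomyosin FPKM in each Rbbp4F/F library and under 30% in each Rbbp4KO library, Flnc is a visible share of the pair in Rbbp4KO libraries, and the muscle-type actins are too small a share to see.

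All 5 members that encode chains of non-muscle or smooth muscle myosin II were called higher, within a narrow range of log2 fold changes from 0.71 to 1.28. The smooth muscle heavy chain gene Myh11, which is no member, stayed below the filter. Myl6, the essential light chain and the most abundant of them, had 1071, 942 and 915 FPKM in Rbbp4KO libraries 1 to 3, against 548, 551 and 540 FPKM in Rbbp4F/F libraries. Myl12a, a regulatory light chain whose phosphorylation switches the motor on, had 631, 677 and 648 FPKM in Rbbp4KO libraries, against 271, 290 and 246 FPKM in Rbbp4F/F libraries (1.28, SE 0.08). Myh9, the heavy chain of myosin IIA, had 170, 186 and 192 FPKM in Rbbp4KO libraries, against 113, 109 and 112 FPKM in Rbbp4F/F libraries (0.71, SE 0.07). In all 3 genes the groups are well apart. Myh10, the IIB heavy chain, changed by the same amount (0.71, SE 0.12), so its share of the heavy chain pair was 29.8 ± 2.02% in Rbbp4KO libraries and 29.6 ± 0.400% in Rbbp4F/F libraries. Myl9, the smooth muscle regulatory light chain, rose to 39.3 ± 3.97 FPKM in Rbbp4KO libraries, against 18.4 ± 2.28 FPKM in Rbbp4F/F libraries.

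All 5 members of the calponin family, whose proteins bind along actin filaments, were called higher. Tagln (GRCm38 chromosome 9), which encodes the smooth muscle marker transgelin, had 156, 236 and 216 FPKM in Rbbp4KO libraries 1 to 3, against 17.8, 21.6 and 8.03 FPKM in Rbbp4F/F libraries. The means differ 12.8-fold (log2 fold change 3.68, SE 0.34), and the lowest Rbbp4KO library is several times the highest Rbbp4F/F library. An antisense gene, Gm48529, covers 67.9% of the exonic length of Tagln, and was itself at 2.04 FPKM in Rbbp4KO libraries and 0.11 FPKM in Rbbp4F/F libraries. Cnn1, the smooth muscle calponin gene, stayed low but rose to 8.55 ± 1.77 FPKM in Rbbp4KO libraries, against 2.31 ± 0.430 FPKM in Rbbp4F/F libraries (1.52, SE 0.18). Tagln2 (0.95, SE 0.12) and Cnn2 (0.94, SE 0.09), the forms used outside muscle, rose by less. Cnn3, the most abundant of the family over all 6 libraries, had 253, 274.8 and 279 FPKM in Rbbp4KO libraries, against 215, 214 and 211 FPKM in Rbbp4F/F libraries. Its call at 0.33 (SE 0.07) did not hold under median-ratio scaling (0.10) or upper-quartile scaling (0.07).

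All 4 cross-linkers among the members were called higher, and Flnc stood far from the rest. Flnc (GRCm38 chromosome 6, plus strand), the filamin of striated muscle, had 65.4, 88.3 and 91.2 FPKM in Rbbp4KO libraries 1 to 3, against 3.52, 3.82 and 2.74 FPKM in Rbbp4F/F libraries. This is a 24.3-fold difference in means and a log2 fold change of 4.24 (SE 0.16), the eighth largest of all tested genes. Flna, the filamin used in most cells, rose to 327 ± 16.9 FPKM in Rbbp4KO libraries, against 183 ± 16.7 FPKM in Rbbp4F/F libraries (0.84, SE 0.09). Of the FPKM of Flna and Flnc taken as a pair, Flnc made up 16.3%, 20.7% and 22.9% in Rbbp4KO libraries and 1.82%, 1.93% and 1.65% in Rbbp4F/F libraries. The alpha-actinin gene Actn4, the most abundant of the role, had 469, 421 and 411 FPKM in Rbbp4KO libraries, against 291, 305 and 276 FPKM in Rbbp4F/F libraries (0.57, SE 0.08). Actn1 rose by 0.73 (SE 0.11).

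Of the 11 adhesion and LIM domain genes, 10 were called higher and 1 was not called, with a median of 1.45. Tgfb1i1 (GRCm38 chromosome 7), which encodes the paxillin relative Hic-5, had 27.3, 30.9 and 30.4 FPKM in Rbbp4KO libraries 1 to 3, against 1.03, 0.770 and 0.560 FPKM in Rbbp4F/F libraries. It is the member that passed the filter through the Rbbp4KO libraries, since only 1 Rbbp4F/F library reached 1 FPKM, and its log2 fold change of 4.10 (SE 0.14) understates the 37.5-fold difference in means. Paxillin itself, Pxn, rose by 0.63 (SE 0.08). Csrp1, the most abundant of the role and a LIM protein of smooth muscle, had 779, 746 and 720 FPKM in Rbbp4KO libraries, against 131, 143 and 102 FPKM in Rbbp4F/F libraries (2.58, SE 0.13). Fhl2, a LIM-only cofactor gene of heart and other tissues, rose to 26.7 ± 3.97 FPKM in Rbbp4KO libraries, against 4.497 ± 0.767 FPKM in Rbbp4F/F libraries (2.33, SE 0.16). Zyx, the gene of zyxin, rose to 143 ± 12.0 FPKM, against 28.03 ± 1.37 FPKM (2.31, SE 0.09).

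The other adhesion and LIM genes ranged from Vcl, which rose, to Lima1, which was not called. Vcl, the vinculin gene, rose to 72.8 ± 14.5 FPKM in Rbbp4KO libraries, against 22.6 ± 0.705 FPKM in Rbbp4F/F libraries (log2 fold change 1.63, SE 0.15). Antisense exons of Ap3m1 cover 25.5% of the exonic length of Vcl. Talin is the protein that links integrin tails to actin, and its gene Tln1 rose by 1.13 (SE 0.09). Antisense exons of Creb3 cover 3.7% of Tln1, and Creb3 was at 62.0 FPKM in Rbbp4KO libraries and 5.85 FPKM in Rbbp4F/F libraries. Pdlim7 rose by 1.45 (SE 0.10) and Fhl1 by 0.89 (SE 0.14), while Lasp1 (0.38, SE 0.10) lost its call with median-ratio scaling (0.15), with upper-quartile scaling (0.11) and without Rbbp4KO replicate 2 (0.34). Lima1, which encodes a LIM protein that stabilises filaments, had 23.1, 24.8 and 25.6 FPKM in Rbbp4KO libraries, against 27.2, 24.2 and 29.2 FPKM in Rbbp4F/F libraries. Its groups overlap (−0.13, SE 0.10), although it holds one of the CArG boxes shown above, at an internal start. It was called lower with median-ratio (−0.35) and upper-quartile scaling (−0.38), and its sign turned with equal FPKM sums (0.03).

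Srf and 1 of the 2 membrane linker genes were called higher. Srf (GRCm38 chromosome 17, minus strand) had 32.9, 29.01 and 28.2 FPKM in Rbbp4KO libraries 1 to 3, against 21.1, 19.0 and 19.5 FPKM in Rbbp4F/F libraries. It was called higher (log2 fold change 0.57, SE 0.10, or 0.41 relative to all tested genes), and the groups do not overlap. The 9 other genes with a CArG box ranged from −0.13 (Lima1) to 2.33 (Fhl2). The median over all 10 was 0.92, and it was 0.90 over the 28 members whose windows held none. Among those 28 are Acta2, Flnc, Myl12a, Tpm3 and Vasp, which hold a near box. Actb, Actg2, Tagln, Tgfb1i1 and Pxn had no window and are in neither median. Their log2 fold changes ran from 0.01 (Actb) to 4.10 (Tgfb1i1), with Tagln at 3.68, Actg2 at 0.65 and Pxn at 0.63. Ezrin and moesin both tie filaments to the plasma membrane. Msn, the moesin gene, had 78.8, 134 and 141 FPKM in Rbbp4KO libraries, against 54.3, 59.8 and 52.5 FPKM in Rbbp4F/F libraries (1.03, SE 0.22). Ezr, the more abundant of the pair over all libraries, had 117, 116 and 121 FPKM in Rbbp4KO libraries and 132, 137 and 115 FPKM in Rbbp4F/F libraries. Its groups overlap (−0.11, SE 0.08), it was called lower with median-ratio (−0.34) and upper-quartile scaling (−0.38), and its sign turned with equal FPKM sums (0.05).

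The 3 Rbbp4KO libraries were not alike in these genes. For 25 of the 35 members called higher (71.4%), replicate 1 lay between the Rbbp4F/F mean and both other Rbbp4KO libraries, as it did for 51% of all tested genes called higher. Both members called lower showed the same order. The gap between replicate 1 and the mean of replicates 2 and 3, on the log2 scale, was −1.29 in Acta2, −1.28 in Acta1, −0.80 in Msn, −0.62 in Tpm2 and −0.59 in Tmsb4x, and 0.61 in Tmsb10. It was smaller in other raised genes, with 0.09 in Csrp1, −0.07 in Pdlim7 and −0.16 in Tgfb1i1. Replicate 1 also held the most Rbbp4 transcript of the group, as given above, and the part of this in the gaps was not tested. Without it the median difference between contractile and ubiquitous members was 1.503, and 35 members were called higher and 3 lower.

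**Figure D5:**
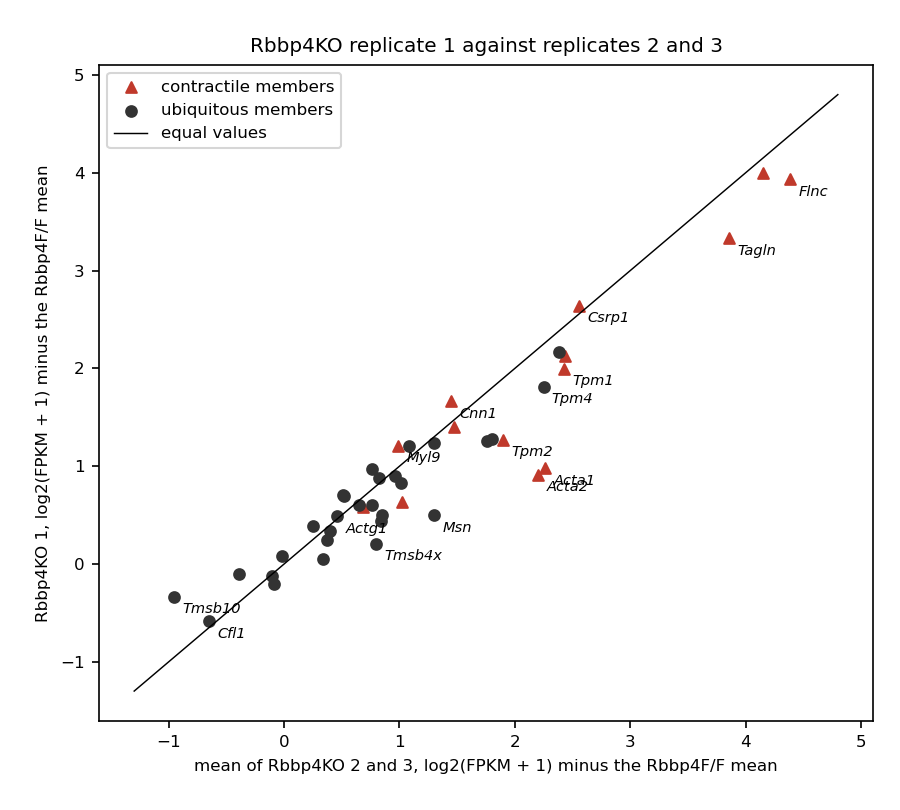
Change of each member in Rbbp4KO replicate 1 (y axis) against the mean change in Rbbp4KO replicates 2 and 3 (x axis), each as log2(FPKM + 1) minus the Rbbp4F/F mean, with contractile members as red triangles and ubiquitous members as black circles. Points under the line of equal values, such as Acta1, Acta2 and Msn, changed less in replicate 1, and Csrp1 lies close to the line.

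Genes upstream of SRF that are no members were compared in the same fit. This list and those below were drawn up with earlier results of these data known. Their p-values therefore order the genes and are no test of a list. Of 30 regulators, 28 were tested, 15 were called higher and 5 lower, against 36.7% and 22.5% of all tested genes, with 10 and 6 under median-ratio scaling and 9 and 6 under upper-quartile scaling. Among the 15, Phactr1 passed the filter through the Rbbp4KO libraries alone. Of the MRTF cofactor genes, Mrtfa had 15.03, 12.1 and 12.4 FPKM in Rbbp4KO libraries, against 9.25, 10.4 and 9.27 FPKM in Rbbp4F/F libraries, and Mrtfb 7.46, 9.30 and 9.37 FPKM, against 5.29, 5.55 and 6.18 FPKM. Their log2 fold changes were 0.41 and 0.54, and no p is given, since both were picked out with their values in view. Myocd, the muscle-specific cofactor gene, stayed under 1 FPKM in every library. The regulators called with the smallest p were Limk2, the kinase that inactivates cofilin (log2 fold change 1.14, SE 0.08, limma adjusted p = 6.93e-05), and the small GTPase genes Rhob (1.77, SE 0.15, limma adjusted p = 1.51e-04) and Rhoc (0.95, SE 0.10, limma adjusted p = 3.54e-04). In each of these 3 genes the 3 Rbbp4KO libraries lay above the Rbbp4F/F libraries. Those that fell were led by the cofilin phosphatase gene Ssh1 (−0.76, SE 0.09, limma adjusted p = 6.01e-04), the SRF partner gene Elk1 (−0.71, SE 0.09, limma adjusted p = 7.53e-04) and the formin gene Diaph1 (−0.48, SE 0.07, limma adjusted p = 0.00122). Relatives of these genes, picked with their values in view, differed in direction. Limk1 was called lower (−0.70), while Ssh2 (0.53), Elk4 (0.59), Diaph2 (0.92) and Diaph3 (1.505) were called higher. Ssh3, Elk3 and Rhoa were not called.

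Of 50 genes of branched actin, filament turnover and cross-linking outside the members, 49 were tested, 26 were called higher and 9 lower, against the same 36.7% and 22.5% of all tested genes, or 21 and 14 under median-ratio and under upper-quartile scaling. The median over tested genes was 0.46. Gsn, the gene of the severing protein gelsolin, rose to 199 FPKM in Rbbp4KO libraries, against 30.2 FPKM in Rbbp4F/F libraries (2.68, SE 0.18, limma adjusted p = 6.44e-05). The cofilin cofactor gene Wdr1 rose as well (1.27, SE 0.10, limma adjusted p = 9.82e-05). The filopodial bundler gene Fscn1 fell to 150 FPKM, against 306 FPKM (−1.02, SE 0.07, limma adjusted p = 6.91e-05), along with Evl (−1.46, SE 0.13, limma adjusted p = 1.87e-04) and the second talin gene Tln2 (−1.07, SE 0.10, limma adjusted p = 2.15e-04).

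Several members were set against a close relative, chosen with the values in view. Cfl1 made up 58.1 ± 5.92% of the FPKM of Cfl1, Cfl2 and the destrin gene Dstn in Rbbp4KO libraries and 79.9 ± 0.638% in Rbbp4F/F libraries. The share of Tln1 in the FPKM of both talin genes was 91.99 ± 0.344% in Rbbp4KO libraries and 69.4 ± 1.70% in Rbbp4F/F libraries. Csrp1 made up 81.1 ± 3.73% of the FPKM of Csrp1 and Csrp2 in Rbbp4KO libraries and 25.05 ± 2.76% in Rbbp4F/F libraries. In each of these 3 comparisons the groups do not overlap, and the shares do not depend on scaling between libraries.

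Most genes of the differentiated muscle sarcomere and of smooth muscle outside the members were low. Of 51 such genes 28 stayed below the filter. The most abundant over all libraries was the light chain gene Mylpf, which was not called and whose groups overlap. It had 541, 396 and 259 FPKM in Rbbp4KO libraries 1 to 3, against 176, 314 and 171 FPKM in Rbbp4F/F libraries. Of the 23 tested, 7 were called higher and 9 lower, again against 36.7% and 22.5% of all tested genes, and 3 had passed through the Rbbp4KO libraries alone and 4 through the Rbbp4F/F libraries alone. The gene of the actin-binding protein caldesmon, Cald1, had 88.2, 163 and 170 FPKM in Rbbp4KO libraries, against 11.97, 11.01 and 12 FPKM in Rbbp4F/F libraries (log2 fold change 3.42, SE 0.24, limma adjusted p = 7.71e-05). Smtn, the smoothelin gene, rose by 1.60 (SE 0.15, limma adjusted p = 2.15e-04). The troponin gene Tnnc1 had 5.90, 5.44 and 6.37 FPKM in Rbbp4KO libraries, against 0.25, 0.18 and 0.57 FPKM in Rbbp4F/F libraries, and Myh3 had 0.46, 0.33 and 0.41 FPKM, against 2.79, 2.82 and 3.30 FPKM. Each of these genes passed the filter through 1 genotype alone, so no p is given for them. The genes Tnnc2 (−1.86, SE 0.17, limma adjusted p = 2.00e-04) and Actn3 (−1.58, SE 0.22, limma adjusted p = 0.00105) fell.

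Markers of other cell types that express contractile genes gave mixed values. The counts called here stand beside 36.7% higher and 22.5% lower of all tested genes. The 14 fibroblast markers, which feeder cells would carry, summed to 19.98 to 22.1 FPKM in Rbbp4KO libraries and 20.1 to 26.4 FPKM in Rbbp4F/F libraries. Of these 14, 10 stayed below the filter, Col1a1 was under 1 FPKM in every library, and Fap was listed at 0 in all 6. Col6a1 and Twist1 were called higher and Thy1 lower, with Thy1 at 7.68 FPKM in Rbbp4KO libraries and 14.8 FPKM in Rbbp4F/F libraries and so a large part of the sum. Of these, Col6a1 passed the filter through the Rbbp4KO libraries alone. Below the filter, Col3a1 had 0.403 FPKM in Rbbp4KO libraries and 0.04 FPKM in Rbbp4F/F libraries, and Dcn 0.727 and 0.213 FPKM. The 8 smooth muscle markers summed to 194 to 250 FPKM in Rbbp4KO libraries and 43.8 to 46.8 FPKM in Rbbp4F/F libraries, with 4 called higher and 1 lower, but most of the sum was Cald1 and Smtn, and Cnn1 is itself a member. Lmod1, also called higher, passed the filter through the Rbbp4KO libraries alone. Myh11, the smooth muscle myosin gene, was at 0.06 to 0.09 FPKM in Rbbp4KO libraries and 0.03 to 0.1 FPKM in Rbbp4F/F libraries, and Des had 4.28, 4.58 and 3.55 FPKM in Rbbp4KO libraries, against 7.71, 8.03 and 5.98 FPKM in Rbbp4F/F libraries. The 7 cardiac markers summed to 8.15 to 13.5 FPKM in Rbbp4KO libraries and 7.76 to 10.5 FPKM in Rbbp4F/F libraries. The 9 trophoblast markers summed to 2209 to 3990 FPKM in Rbbp4KO libraries and 115 to 173 FPKM in Rbbp4F/F libraries, with 7 called higher and none lower. Most of the sum in Rbbp4KO libraries was Krt8 (1586 FPKM, against 65.8 FPKM in Rbbp4F/F libraries) and Krt18 (1575 FPKM, against 55.5 FPKM). Elf5 and Eomes were not called, and Cdx2 and Gata3 passed the filter through the Rbbp4KO libraries alone. The 8 primitive endoderm markers summed to 49.2 to 140.7 FPKM in Rbbp4KO libraries and 43.7 to 46.2 FPKM in Rbbp4F/F libraries, with 3 called higher and 1 lower. Col4a1 carried most of the sum in Rbbp4KO libraries (88.96 FPKM, against 18.8 FPKM in Rbbp4F/F libraries), and Lama1 was the gene called lower (3.65 FPKM, against 23.1 FPKM). Gata4 and Dab2, also called higher, passed the filter through the Rbbp4KO libraries alone. The part of trophoblast, endoderm and fibroblast cells in the actin values was not tested.

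Sequence shared with other genes touches some members. Stretches of at least 100 bases at 95% identity or more to transcripts of another gene covered 85.4% of the Tpm3 transcript (the intronless copy Tpm3-rs7), 59.9% of Tmsb10, 57.8% of Actg1, 48.3% of Cnn3, 38.2% of Myl6, 34.8% of Tpm4, 28.3% of Myl12a (Myl12b among them), 27.1% of Cfl1 and 22.4% of Lasp1. The way the authors' counting divided such reads is not stated in the labels, so the values of these 9 genes are less certain. The copies of Actg1 together had 5.08 FPKM in Rbbp4KO libraries and 5.09 FPKM in Rbbp4F/F libraries. The partners of Cfl1, chiefly Arcn1, had 121.6 FPKM in Rbbp4KO libraries and 83.96 FPKM in Rbbp4F/F libraries, and those of Myl12a had 138.2 and 138.7 FPKM. No such stretch joined the 5 member actins to each other. Antisense exons also cover 17.7% of the exonic length of Cnn3 (Gm42928) and 16.5% of that of Cfl1 (Snx32). Strand use in the counting is not stated, so reads of a member and its antisense partner cannot be told apart.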

How the data were processed

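Total RNA was made into Illumina TruSeq libraries, per the labels' protocols. Per the submitters' processing notes, the build was GRCm38.p6 and the tools were HISAT2 2.1.0, DESeq 1.26.0, RSEM and FastQC, with no role given. Strand use is not given in the sources used here. The values the authors deposited were taken as FPKM from the values themselves. Because FPKM is relative to each library's total, abundant transcripts that fall push all others up. 2 of 52872 rows per file hold no gene identifier and were left out. Symbols came from GENCODE M21 and matched 51719 Ensembl identifiers.

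Limma 3.58.1 (R 4.3.3) was fitted to log2(FPKM + 1) of every gene that reached 1 FPKM in 3 or more libraries (mean trend, group only, Benjamini-Hochberg over 13579 genes, threshold 0.05), which was tested on simulated data. A fold change on this scale, Rbbp4KO minus Rbbp4F/F, understates the change of low genes. Depth came from the even spacing of low values, of which 88.1% to 90.5% fell within 0.15 of a whole step. The members and all lists were chosen with earlier results of these data known. Values per library are given for the actins, Srf and, per role, the most abundant member and those with the highest and lowest fold change. In the other lists up to 3 called genes per direction with the smallest p are named, and 1 that this rule picks is not reported here. Sequences are from RefSeq. Alternatives were other scalings, pseudocount and filters, a replicate block, protein-coding genes alone, and leaving out each library.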

Additional observations from a re-analysis of the deposited data

How the results depend on the processing

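Across 15 alternatives 32 of 42 tested members kept their call and direction. Under either median-ratio or upper-quartile scaling 5 members were called lower in place of 2 (Tmsb10, Cfl1, Pfn1, Lima1 and Ezr), and 14 genes of branched actin and turnover in place of 9. SRF regulators called higher numbered 9 with upper-quartile scaling, and muscle-associated genes called lower numbered 5 with a filter of 5 FPKM, which tested 12. The contractile minus ubiquitous median was 1.45 with a pseudocount of 0.1 and ran from 1.02 to 1.503 with 1 library left out, the highest without Rbbp4KO replicate 1. Signs turned in 4 members that were not called. Actb was −0.22 under median-ratio and −0.25 under upper-quartile scaling, and ran from −0.07 (without Rbbp4F/F replicate 3) to 0.08 with 1 library left out, with −0.02 without Rbbp4KO replicate 1. Tpm3 was −0.02 with upper-quartile scaling, Lima1 0.03 with equal FPKM sums, and Ezr 0.05 with equal FPKM sums and 0 with totals without the 20 most abundant genes. The cause was not tested, beyond the shift of all genes that each scaling makes. With the replicate number as a block 35 members were higher and 2 lower, as without it, and 7779 genes were called in all. Deviations of same-numbered libraries had correlations of −0.001, −0.009 and 0.049, and those of the other pairs ran from −0.072 to 0.072. These correlations cannot show whether same-numbered libraries share a culture or a day, which the labels do not state. Of 252 member values with 1 library left out, 9 lost a call, 3 gained one and 2 changed sign. Values near 0.02 FPKM rest on about 1 fragment on a transcript of 2 kb.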
